A study of Mus musculus with 36 samples.

Results

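Gas1 and Btg2 were followed in mouse NIH3T3 fibroblasts, an immortalised embryonic line, that carried an Erbb2 transgene under tet-off control, in which tetracycline shuts the transgene down. Both genes were chosen by symbol with their measured values known, so their values are a description and carry no test. The array held 1 probe for Gas1 and 2 probes for Btg2, that is 3 of 20355 probes and 2 of 9930 named genes. All 3 probes had a value in each of the 35 distinct arrays.

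Channel 1 of each array held total RNA of Erbb2 transfected NIH3T3 cells. Tetracycline had been given for 1 h, 2 h, 4 h, 12 h, 24 h, 3 days, 5 days or 7 days, with 4 arrays per time, and the same cells left untreated gave 3 distinct arrays. Channel 2 held RNA of untreated Erbb2 transfected cells on every array. All groups therefore share the transgene and the host line, and the labels do not give the number of clones or the promoter beyond the tet-off system. The protocols in the labels speak instead of individual organs and a reference pool of control animals, and the design text of different untreated NIH3T3 lines, so the reference is not fully settled. Each value is a log2 ratio against this reference, centred on its array's median, so it shows a difference and never a level. Fibroblast markers could not be read as levels for the same reason, and the array had 0 probes named Erbb2, so the shutdown of the transgene was not analysed here.

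Gas1 encodes a membrane glycoprotein attached by a lipid anchor. It was first found as a transcript of serum-starved, resting NIH3T3 fibroblasts, its overexpression holds fibroblasts out of S phase, and it also acts as a co-receptor for hedgehog ligands and resembles the GDNF family receptors. Btg2 belongs to the BTG/TOB family of antiproliferative proteins, which bind the CCR4-NOT deadenylase and speed the removal of poly(A) tails. It is a p53 target and an immediate early gene that mitogens induce. Erbb2 is a receptor tyrosine kinase whose signalling drives fibroblasts through the cell cycle.

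The promoters of both genes are shown because the genes had high ratios at the same late times. Each is 300 bases long, from 250 before to 50 after the start, on the minus strand of GRCm38.p6 as RefSeq gives it. The Gas1 window lies at chr13:60177486-60177785 and the Btg2 window at chr1:134079106-134079405. Capitals mark the CCAAT box (CCAAT), the GC box (GGGCGG) and the cAMP response element (TGACGTCA), each searched on both strands.
Gas1: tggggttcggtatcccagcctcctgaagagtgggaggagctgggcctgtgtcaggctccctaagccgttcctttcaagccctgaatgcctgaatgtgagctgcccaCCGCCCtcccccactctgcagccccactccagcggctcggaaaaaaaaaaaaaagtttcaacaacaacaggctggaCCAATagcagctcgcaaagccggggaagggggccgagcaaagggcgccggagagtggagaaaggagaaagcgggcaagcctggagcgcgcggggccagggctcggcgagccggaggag
Btg2: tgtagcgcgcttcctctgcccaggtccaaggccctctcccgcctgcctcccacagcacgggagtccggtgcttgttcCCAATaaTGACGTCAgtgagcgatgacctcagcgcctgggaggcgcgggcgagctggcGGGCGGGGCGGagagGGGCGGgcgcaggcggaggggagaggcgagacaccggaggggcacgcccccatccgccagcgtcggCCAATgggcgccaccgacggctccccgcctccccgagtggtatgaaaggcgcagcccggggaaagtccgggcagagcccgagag
The Gas1 window held 1 CCAAT box at -68 and 1 GC box at -144 relative to the start. The Btg2 window held CCAAT boxes at -173 and -34 and GC boxes at -115, -110 and -100, of which those at -115 and -110 overlap. Btg2 also held a cAMP response element at -166, a motif found in 1.79% of 32851 promoter windows of the same length, whereas a CCAAT box was found in 37.41% and a GC box in 35.66%. A match to the p53 decamer began 3 bases after the first transcribed base of Gas1, and a match was found in 8.36% of windows. The Btg2 window held no such match. Neither window matched AP-1 (TGANTCA, 7.81% of windows), the FOXO site (GTAAACA, 3.65%), TATAA (24.87%) or the serum response element core known as the CArG box (1.63%). The bases were 62.33% G or C in Gas1 and 72.0% in Btg2, above 76.19% and 93.13% of windows.

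Arrays of replicates 1 and 2 carried channel 1 in Cy5, and those of replicates 3 and 4 carried it in Cy3. The ratios were taken as Cy5 over Cy3, so that Cy3 arrays were multiplied by -1. No source states the numerator, so the direction is assumed, and if the deposited ratios ran the other way every higher would read lower. Over all probes, treated arrays of opposite dye had a mean Pearson r of 0.0152 and a mean Spearman rho of -0.0167 (32 pairs within groups), which does not settle whether turning was needed. For Gas1 itself, each of the 8 treated groups had deposited means of opposite sign in the 2 dyes. Btg2 probe 1 had opposite signs in 7 of 8 treated groups, all but 3 days, and Btg2 probe 2 in 4 of 8. Both genes were chosen with their turned values known, and the share of all probes with such signs was not counted. These signs therefore do not settle it either.

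**Figure D1:**
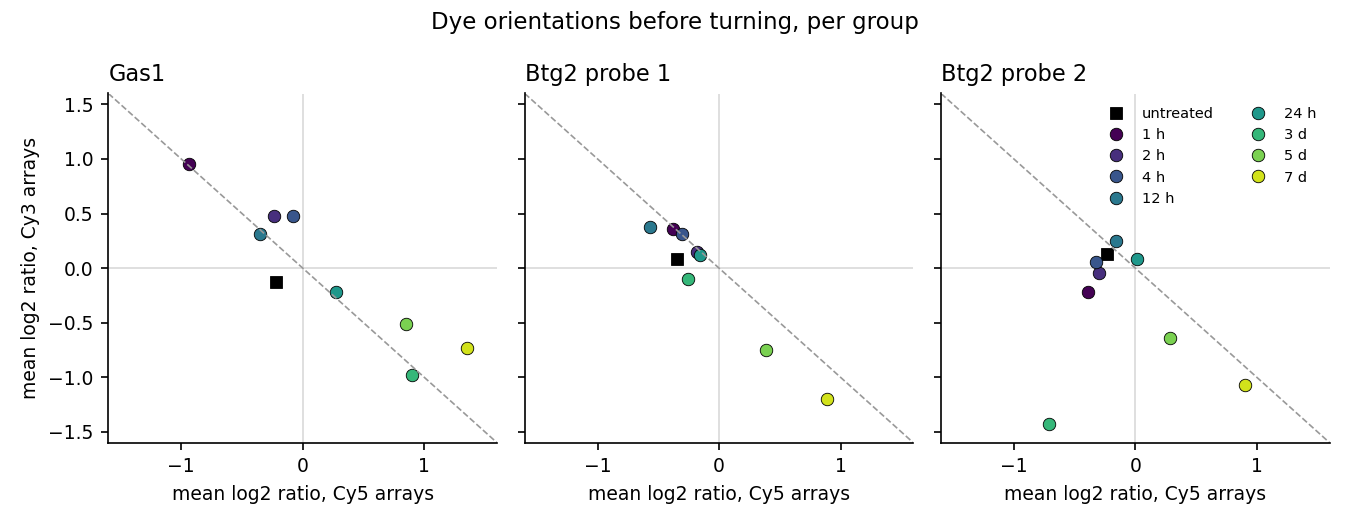
Mean centred log2 ratio of the Cy5 arrays (x axis) against that of the Cy3 arrays (y axis) before turning, 1 point per group and 1 panel per probe; the dashed line marks exact opposition. Gas1 at 1 h stood at -0.94 in Cy5 and 0.95 in Cy3, while the untreated group was below 0 in both, and Btg2 probe 2 at 3 days was below 0 in both.

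Among the untreated arrays, Gas1 stood at -0.22, 0.11 and 0.15, with a mean of 0.01 ± 0.20 (SD, n = 3). The single Cy5 array was the low one.

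After 1 h of tetracycline the 4 Gas1 ratios were -1.02, -0.86, -0.99 and -0.91, a mean of -0.94 ± 0.07 (SD, n = 4), or a ratio of 0.520 to the reference. At 2 h they were -0.28, -0.20, -0.43 and -0.53 (mean -0.36 ± 0.15), and at 4 h they were -0.16, 0.00, -0.61 and -0.34 (mean -0.28 ± 0.26). All 1 h arrays lay below all untreated arrays, as did 3.91% of all probes, and the 2 h and 4 h arrays overlapped the untreated ones. Gas1 was thus lowest at the earliest time measured and nearer to the reference at 2 h.

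At 12 h the Gas1 ratios were -0.28, -0.43, -0.25 and -0.38 (mean -0.34 ± 0.09), all below the untreated arrays, as in 2.86% of probes. At 24 h they were 0.31, 0.23, 0.20 and 0.23 (mean 0.25 ± 0.05), all above the untreated arrays, as in 3.17% of probes. The 4 arrays were thus all below the reference at 12 h and all above it at 24 h.

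At 3 days the Gas1 ratios were 0.71, 1.09, 0.90 and 1.07 (mean 0.94 ± 0.17), or 1.92 times the reference. At 5 days they were 0.79, 0.92, 0.49 and 0.54 (mean 0.68 ± 0.20), and at 7 days 1.42, 1.29, 0.55 and 0.91 (mean 1.04 ± 0.39), or 2.06 times. Every array of these 3 times lay above every untreated array, as did 1.61%, 4.71% and 3.62% of probes at 3, 5 and 7 days. The Cy3 arrays at 7 days gave a mean of 0.73 against 1.36 in Cy5, so the size there differed between the dyes while the sign did not.

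In order of the group means, Gas1 went from 1 h through 2 h, 12 h, 4 h, untreated, 24 h, 5 days and 3 days to 7 days. Neighbours in this order differed by more than the larger of their SDs except 2 h and 12 h, 12 h and 4 h, and 3 days and 7 days. The 12 late arrays (3, 5 and 7 days) ran from 0.49 to 1.42 and the 12 early arrays (1, 2 and 4 h) from -1.02 to 0.00. The sets did not overlap, a pattern shown in this direction by 0.307% of the 12362 probes measured in all these arrays.

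The fitted Gas1 difference from untreated was -0.57 (SE 0.14) for the early times, -0.08 (SE 0.15) for 12 and 24 h together and 0.85 (SE 0.14) for the late times. Late minus early, which uses no untreated array, was 1.42 (SE 0.09), a 2.67-fold higher ratio, and 99.8% of 15871 probes had a smaller value. Taken from group means without a fit, the late difference from untreated was 1.26 in the Cy5 arrays alone and 0.61 in the Cy3 arrays alone. The early one was -0.20 and -0.76. Both Cy5 values rest on a single untreated array, at -0.22. Late minus early was 1.46 and 1.38, close in both dyes.

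The deposited values of 5 and 7 days had slid against the probe list, and 4 rows separated the Gas1 probe from its value. Values were moved back after comparing these arrays with the 27 others: around Gas1, a shift of 4 rows gave the highest mean correlation with values predicted from the other arrays (0.0741, above 0 in 8 of 8 arrays), against 0.0392 at the next best shift. At the deposited row, Gas1 read -0.55, 0.68, 0.08 and -0.06 at 5 days and 0.51, 0.63, 0.17 and 0.33 at 7 days. Late minus early would then be 0.99 in place of 1.42, while 3 days alone, which needed no move, gave 1.47 (SE 0.12). The probes of Btg2 lie before the first slide and were not affected, apart from a 1-row shift along the whole of 5 days replicate 1.

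**Figure D2:**
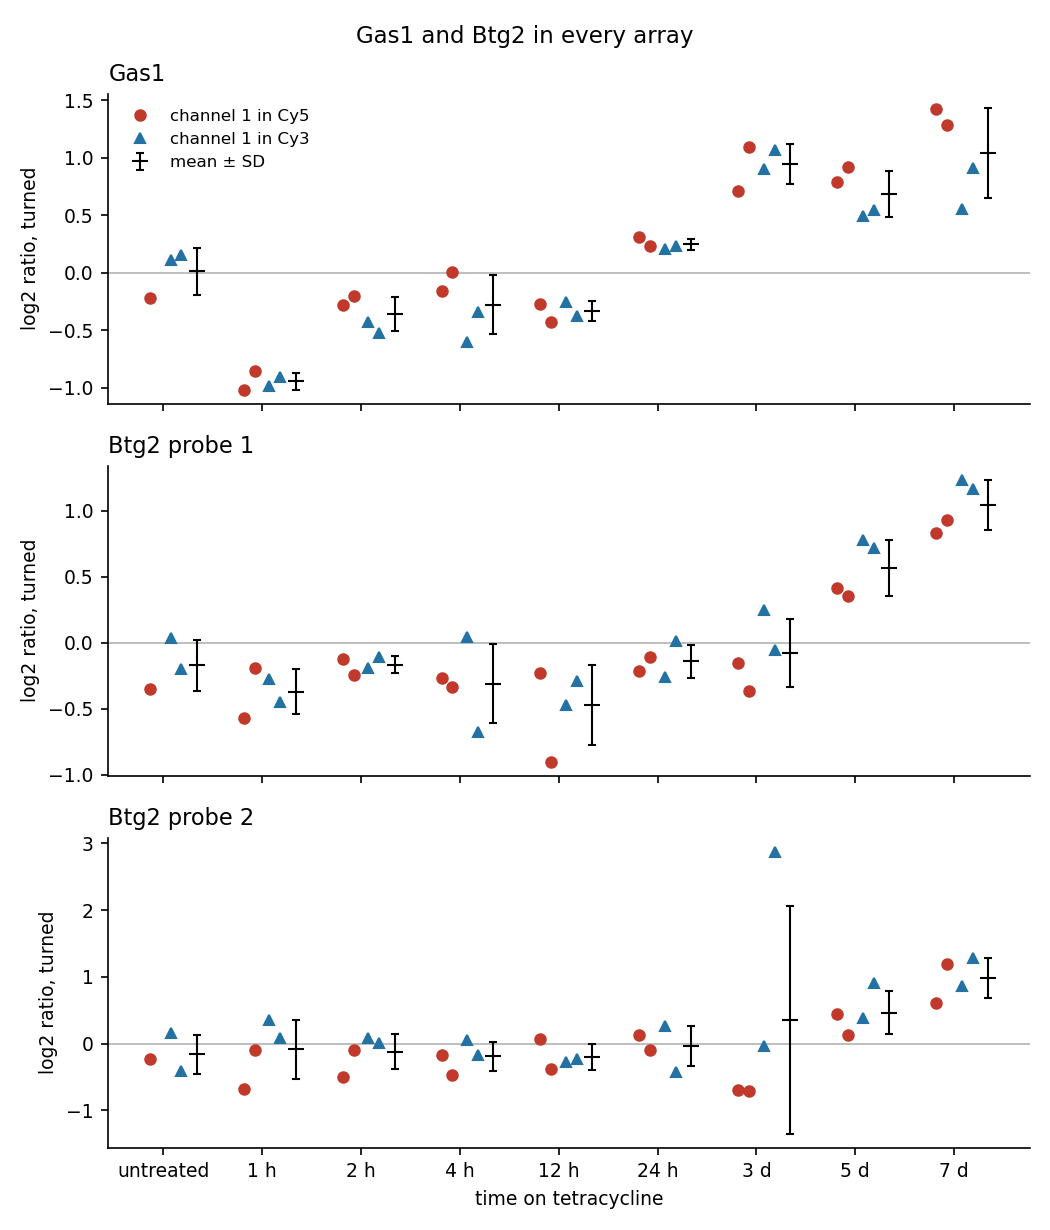
Turned, centred log2 ratio (y axis) of Gas1 and both Btg2 probes in every array by time on tetracycline (x axis); circles are arrays with channel 1 in Cy5, triangles those in Cy3, and bars the mean ± SD. Gas1 lay near -0.94 at 1 h and between 0.49 and 1.42 from 3 days on, Btg2 left the untreated range at 5 and 7 days in probe 1, and 1 array of probe 2 at 3 days stood at 2.88.

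Btg2 probe 1 stood at -0.35, 0.03 and -0.20 in the untreated arrays (mean -0.17 ± 0.19, n = 3). At 1 h its ratios were -0.57, -0.19, -0.28 and -0.45 (mean -0.37 ± 0.17), at 2 h -0.12, -0.24, -0.19 and -0.11 (mean -0.17 ± 0.06), and at 4 h -0.27, -0.34, 0.05 and -0.68 (mean -0.31 ± 0.30). At 12 h they were -0.23, -0.90, -0.47 and -0.29 (mean -0.47 ± 0.30) and at 24 h -0.21, -0.11, -0.26 and 0.02 (mean -0.14 ± 0.12). All of these groups overlapped the untreated arrays.

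At 3 days Btg2 probe 1 stood at -0.15, -0.37, 0.25 and -0.05 (mean -0.08 ± 0.26), still within reach of the untreated arrays. At 5 days it stood at 0.42, 0.36, 0.78 and 0.72 (mean 0.57 ± 0.21), and at 7 days at 0.84, 0.94, 1.24 and 1.16 (mean 1.04 ± 0.19), or 2.06 times the reference. The 5 and 7 day arrays all lay above the untreated ones, as did 4.71% and 3.62% of all probes. Both Cy3 arrays were higher than both Cy5 arrays at each of these times. The steps from 3 to 5 days and from 5 to 7 days were the only gaps between neighbouring groups that exceeded the larger SD.

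Btg2 probe 2 was more variable. In the untreated arrays it stood at -0.23, 0.16 and -0.42 (mean -0.16 ± 0.29), and its group means from 1 to 24 h lay between -0.20 and -0.03. At 3 days its ratios were -0.70, -0.72, -0.03 and 2.88 (SD 1.71). The array at 2.88, replicate 4, stood apart from the others at that time and from probe 1 on the same array, at -0.05.

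At 5 days Btg2 probe 2 stood at 0.44, 0.12, 0.38 and 0.91 (mean 0.46 ± 0.33), 1 array of which fell within the untreated range. At 7 days it stood at 0.61, 1.19, 0.86 and 1.28 (mean 0.98 ± 0.31). All 4 arrays then lay above the untreated ones, as in 3.62% of all probes. Both probes had their highest group mean at 7 days.

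Over the mean of both probes, the fitted Btg2 difference from untreated was 0.01 (SE 0.22) early, 0.00 (SE 0.23) at 12 and 24 h and 0.77 (SE 0.22) late. Late minus early was 0.76 (SE 0.14), a 1.70-fold higher ratio, made of 0.79 (SE 0.09) in probe 1 and 0.74 (SE 0.24) in probe 2. The late and early arrays overlapped in both probes. Probe 1 ran from -0.68 to 0.05 early and from -0.37 to 1.24 late. Probe 2 ran from -0.68 to 0.36 early and from -0.72 to 2.88 late. Without 3 days replicate 4, the mean of both probes gave 0.63 for late minus untreated and 0.63 for late minus early. With 3 days alone as the late time, late minus early of that mean was 0.35 (SE 0.19), below the value over the 3 late times. It was 0.20 (SE 0.13) in probe 1 and 0.49 (SE 0.34) in probe 2. The latter includes replicate 4 at 2.88, while the other 3 day arrays of probe 2 stood at -0.70, -0.72 and -0.03.

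Gas1 and Btg2 shared their high ratios at 5 and 7 days, and Gas1 and Btg2 probe 1 were furthest apart at 1 h and 3 days. At 3 days Gas1 differed from untreated by 0.90 (SE 0.17) and Btg2 probe 1 by 0.12 (SE 0.17), and at 1 h by -0.98 (SE 0.17) and -0.17 (SE 0.17). They were closer at 4 h (-0.32 and -0.11), 12 h (-0.37 and -0.28) and 24 h (0.21 and 0.06), with an SE of 0.17 each. At 7 days the values were 1.01 (SE 0.17) and 1.24 (SE 0.17). These differences share the 3 untreated arrays, and the difference between the genes was not tested. Over all 35 arrays, the Spearman rho of Gas1 with Btg2 was 0.621 for probe 1, 121st among the 11927 probes of other genes compared. It was 0.386 for probe 2, which ranked 628th. The 2 Btg2 probes had a rho of 0.654 with each other, a rank of 40 beside the 11926 probes of other genes compared with probe 1.

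Across the whole array, limma with Benjamini-Hochberg adjustment at an adjusted p of 0.05 called 0.515% of probes in early minus untreated, 0.0678% in middle (12 and 24 h) minus untreated, 1.66% in late minus untreated and 7.37% in late minus early (3.02% higher, 4.35% lower). With 3 days alone as the late time, 5.02% were called. The interquartile range of the arrays was 0.357 to 0.504 from 1 to 24 h and 0.694 to 1.42 from 3 to 7 days, so the late arrays were wider. The part of this width in the late ratios of Gas1 and Btg2 was not tested.

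The other genes of both pathways were counted over lists that leave out Gas1 and Btg2. In late minus early, 2 of 16 measured growth arrest and DNA damage genes rose and none fell by limma. The list's median difference was 0.00 against 0.01 over all probes tested. Pmp22 (also known as Gas3), a myelin membrane protein that accumulates in resting fibroblasts, rose by 0.79 (SE 0.13, adjusted p = 7.68e-05, limma). Slfn1, a Schlafen protein linked to lymphocyte quiescence, rose by 0.91 (SE 0.22, adjusted p = 0.00733, limma) and was not called with 3 days alone as late (0.39, adjusted p = 0.554, limma) or at the deposited rows (0.72, adjusted p = 0.109, limma). No gene of this list was called against untreated at early, middle or late times by limma.

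In the BTG/TOB and CCR4-NOT list, 1 of 10 measured genes rose and 1 fell in late minus early, with a median of 0.00. Btg1, the closest relative of Btg2, rose by 0.53 (SE 0.13, adjusted p = 0.00962, limma), from a mean of 0.03 ± 0.20 (SD, n = 12) early to 0.56 ± 0.48 late. That call was lost with 3 days alone as late (0.57, adjusted p = 0.08, limma), with quantile normalisation (0.36), without centring (0.52), with array weights (0.43) and at the deposited rows of 5 and 7 days (0.28, adjusted p = 0.552, limma). Pabpc1, the cytoplasmic poly(A)-binding protein that coats the tails which BTG/TOB proteins help to shorten, fell in all 3 probes, by 0.92, 0.94 and 1.06 (adjusted p = 3.43e-07, 1.91e-05 and 5.37e-06, limma). Its early means were 0.43 to 0.50 and its late means -0.63 to -0.42.

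Of the hedgehog pathway and GDNF receptor genes, which share the ligands or the fold of Gas1, 1 of 12 measured rose and none fell in late minus early, and the median was 0.13. Gfra1, a GDNF receptor of the family that Gas1 resembles, rose by 0.43 (SE 0.11, adjusted p = 0.0129, limma). It lost the call with 3 days alone as late (0.26, adjusted p = 0.397, limma), with quantile normalisation (0.05), without centring (0.42) and with array weights (0.35), and its sign turned at the deposited rows (-0.21).

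Of p53 and its targets, the group to which Btg2 belongs, none of 12 measured rose and 2 fell in late minus early, with a median of -0.07. Ccng1, cyclin G1, fell by 0.79 (SE 0.17, adjusted p = 0.00243, limma) in 1 of its 3 probes, a call lost at the deposited rows (-0.57, adjusted p = 0.0513, limma), and its other probes were at -0.07 and -0.27, not called. Plk2, a polo-like kinase, fell by 0.61 (SE 0.14, adjusted p = 0.00346, limma), a call lost with quantile normalisation (-0.49, adjusted p = 0.0579, limma). Its early mean was 0.23 ± 0.62 and its mean at 12 and 24 h was -0.80 ± 0.23. With 3 days alone as late, 2 genes of the list rose (Perp and Ei24) and 2 fell (Ccng1 and Plk2).

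Among CDK inhibitors, pocket proteins and quiescence factors, 1 of 12 measured genes rose and 2 fell in late minus early, with a median of 0.14. Foxo3, a forkhead factor active in resting cells, rose in 2 of its 3 probes, by 0.43 and 0.55 (adjusted p = 0.0209 and 0.00626, limma), and stood at 0.67 in the other, which was not called (adjusted p = 0.154, limma). The probe at 0.43 lost its call with array weights, and the probe at 0.55 lost it without centring and at the deposited rows (0.40, adjusted p = 0.71, limma). The zinc finger factors Klf4 and Klf6 fell by 0.58 and 0.48 (adjusted p = 0.000816 and 0.00775, limma), but with 3 days alone as late neither was called (-0.45 and -0.20), nor was the Foxo3 probe at 0.43 (then also 0.43, adjusted p = 0.141, limma). Klf6 also lost its call without centring, and averaged over its probes it was at -0.23 (adjusted p = 0.244, limma).

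Of the G1 cyclins, kinases and E2F genes, none of 11 measured rose and 4 fell in late minus early, with a list median of -0.02. Cks1b, the CDK subunit that helps SKP2 to degrade p27, fell by 1.07 (SE 0.16, adjusted p = 4.08e-05, limma), and Cdc25a, a phosphatase that activates CDK2, fell by 0.52 (SE 0.10, adjusted p = 0.000935, limma). Cks2 and Cdk4 fell by 0.53 and 0.47 (adjusted p = 0.00609 and 0.00798, limma) and were at -0.15 and -0.17, not called, with 3 days alone as late. Cks2 also lost its call at the deposited rows (-0.37) and Cdk4 without centring (-0.48). Averaged over its probes, Cdc25a was at -0.20 and not called (adjusted p = 0.277, limma), so its probes disagreed. None of these lists other than the immediate early genes had a call against untreated by limma.

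The immediate early genes, the group Btg2 shares with mitogen response, went both ways in late minus early: 4 of 19 measured rose and 4 fell, with a median of -0.07. Zfp36l1, an RNA-binding protein that recruits CCR4-NOT to AU-rich transcripts, rose by 1.32 (SE 0.15, adjusted p = 1.66e-07, limma) in 1 of its 2 probes and was 1.27 with 3 days alone as late, while its other probe was at 0.36, not called. Against untreated it rose by 0.93 late (adjusted p = 0.0338, limma), a call lost without untreated replicate 3 or 4, without centring (0.74), with quantile normalisation (0.75), with only the arrays compared (1.01), at the deposited rows (0.66) and with 3 days alone (0.88). Egr1, a zinc finger factor induced by receptor kinases, fell by 1.78 early and fell by 2.76 at 12 and 24 h against untreated (adjusted p = 9.25e-05 and 6.06e-07, limma). Ier3 rose by 0.75 early in 1 of its 2 probes (adjusted p = 0.0375, limma), a call lost in 12 of 15 fits without 1 array and without centring (0.57). Its other probe was at 0.73 and not called (adjusted p = 0.0671, limma).

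The remaining late minus early calls of that list were Junb, Ier2 and Nr4a1 higher by 0.55, 0.55 and 0.49 (adjusted p = 0.00171, 0.000446 and 0.00949, limma) and Rgs2 and Fosl1 lower, with differences of -0.57 and -0.63 (adjusted p = 0.0166 and 0.0190, limma), besides Klf4 and Klf6. Rgs2 was called in 1 of its 2 probes, and lost that call with quantile normalisation (-0.42, adjusted p = 0.131, limma) and at the deposited rows (-0.40, adjusted p = 0.352, limma). At the deposited rows Fosl1 (-0.46) and Nr4a1 (0.36) lost theirs too, as did Junb (0.53) and Nr4a1 (0.47) without centring. With 3 days alone as late, Junb and Ier2 were at -0.35 and -0.24, so their sign turned, and Nr4a1 and Fosl1 (0.36 and -0.59) were not called. With 3 days alone, 1 gene of the list rose (Zfp36l1) and 4 fell (Ier3, Jun, Mcl1 and Rgs2) among 21 measured. The counts of the other lists were then 1 higher (Pmp22) and 0 lower of 17 for growth arrest and DNA damage. They were 0 and 2 (Pabpc1 and Prmt1) of 11 for BTG/TOB and CCR4-NOT. For hedgehog and GDNF receptors they were 1 and 0 of 12, where the called gene was Hhip and not Gfra1. CDK inhibitors and quiescence had 1 (Foxo3) and 0 of 13, and G1 genes had 0 and 2 (Cdc25a and Cks1b) of 16.

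**Figure D3:**
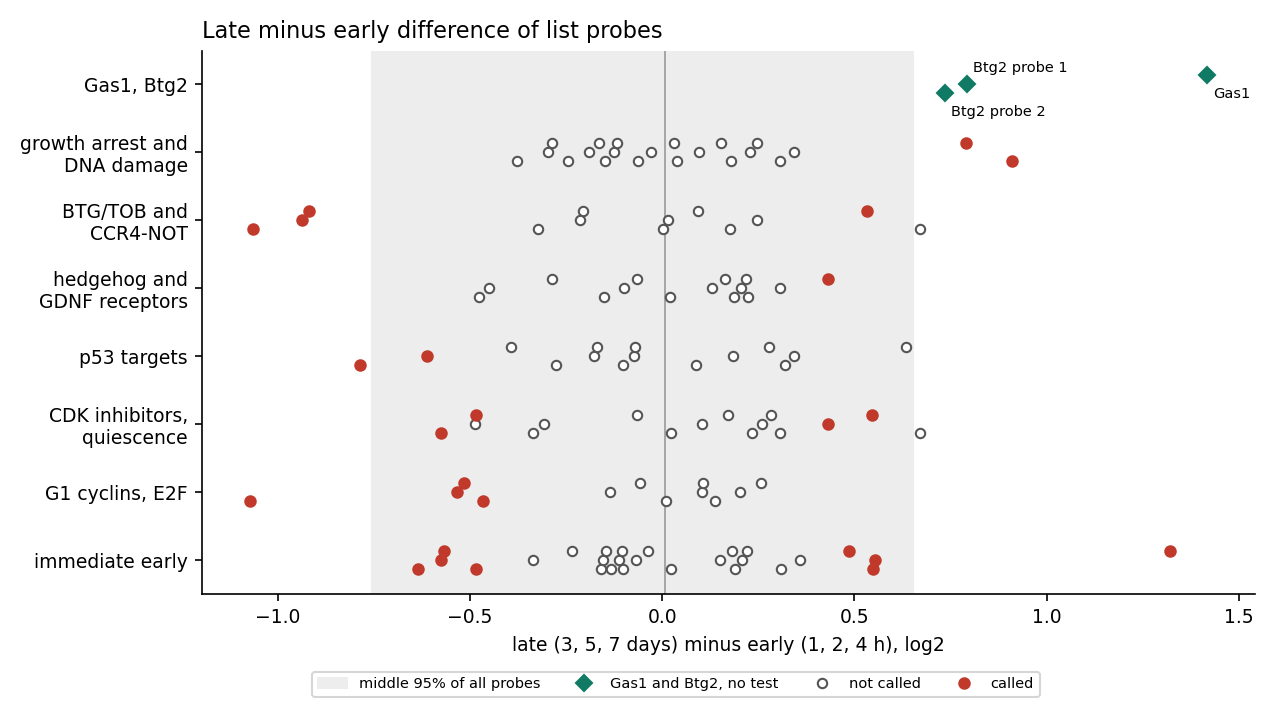
Fitted late minus early difference (x axis, log2) of each measured probe by gene list (y axis); diamonds are Gas1 and Btg2, which carry no test, and for the other genes filled points were called by limma at an adjusted p of 0.05 and open points were not; the grey band holds the middle 95% of all probes. Gas1 lies at 1.42 and the Btg2 probes at 0.79 and 0.74, to the right of the band, while the other lists centre near 0.

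By the closeness of their course over the 35 arrays, the probes nearest to Gas1 were Col1a2 (Spearman rho 0.929 and, in another probe, 0.915), Col6a1 (0.921), Itm2b (0.917) and Mn1 (0.915). Col1a2 and Col6a1 encode chains of the fibrillar collagen I and the microfibrillar collagen VI, Itm2b is a membrane protein and Mn1 a transcriptional cofactor. The closest Col1a2 probe had a mean of -1.36 at 1 h and 0.92 at 7 days. Its rho with Gas1 was 0.873 in the 17 Cy5 arrays, 0.961 in the 18 Cy3 arrays and 0.900 without 5 and 7 days. All points share the reference channel and the centring, and no p is given since these genes were picked for their closeness.

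The probes nearest to Btg2 probe 1 were Emb (rho 0.80), Csnk2a2 (0.791), Btg1 (0.763), Eif4a2 (0.730) and Rin2 (0.728). Emb is an immunoglobulin-type membrane protein, Csnk2a2 a catalytic subunit of casein kinase 2, Eif4a2 a translation initiation helicase and Rin2 a RAB5 exchange factor. Btg1 stood at 0.59 at 3 days, where Btg2 probe 1 stood at -0.08. Without 5 and 7 days the rho values were 0.491 to 0.741, lower than over all arrays for each of the 5.

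**Figure D4:**
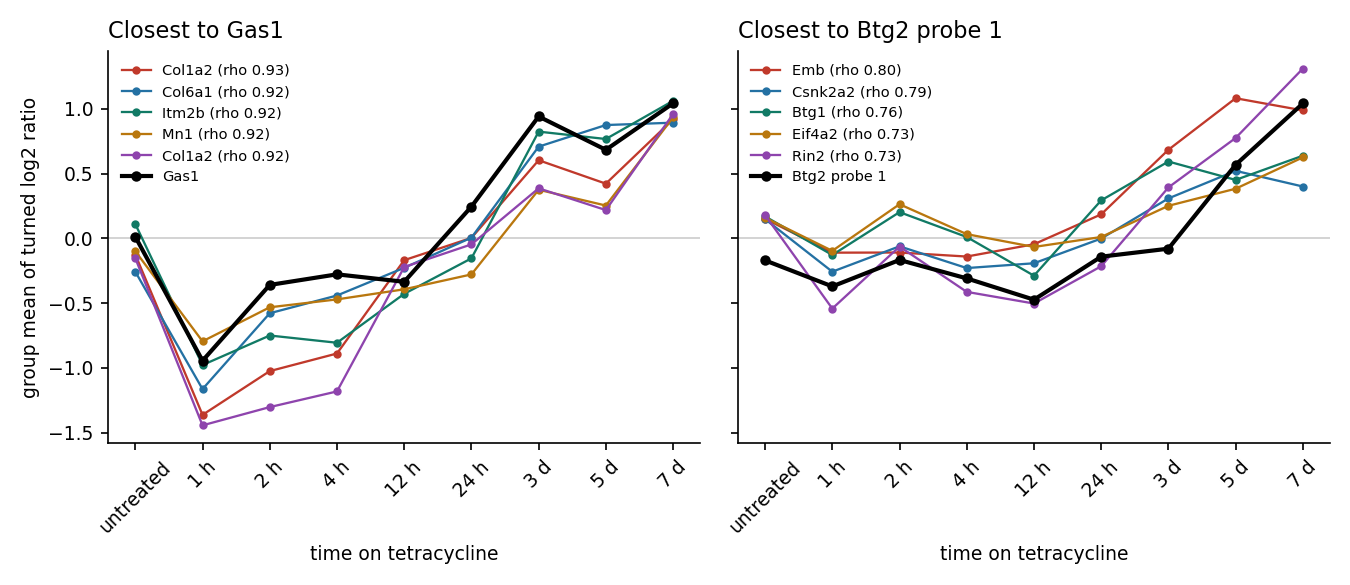
Group means of the turned log2 ratio (y axis) by time on tetracycline (x axis) for Gas1 and Btg2 probe 1 (black) and the 5 probes closest to each. The Gas1 neighbours are all lowest at 1 h and highest at 7 days, and the Btg2 neighbours lie between -0.54 and 0.29 from 1 to 24 h.

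The cell type markers were counted beside these results. Of 10 fibroblast markers, 3 fell early against untreated (Col1a1, Col1a2 and Col3a1), and in late minus early 5 rose (the same collagens with Pdgfra and Pdgfrb) and 3 fell (Fn1, S100a4 and Vim). Some probes of Pdgfra and Fn1 were not called. In late minus untreated, Col1a1 and Col1a2 were called higher and Fn1, S100a4 and Vim lower, though not in every probe. Of 3 measured macrophage markers, Lyz2 rose by 0.47 in late minus early in 1 of its 2 probes (adjusted p = 0.0478, limma). The others were not called. Of 5 epithelial markers none was called in any of the 4 comparisons; the smallest adjusted p in limma were 0.125 for Epcam and 0.286 for Krt8. The 3 collagen markers thus had the same signs as Gas1 early and in late minus early, while 3 other fibroblast markers had the opposite sign late, and their part in its ratios was not tested. Fewer cells of a type and less RNA per cell cannot be told apart in these bulk samples.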

How the data were processed

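The authors deposited log2 ratios of 2 channels for 36 arrays; software, background correction and normalisation are not given in the sources used here. Gas1, Btg2 and all gene lists were chosen with earlier results of these data known. Values above 12 (2807) were dropped and arrays centred on their median. The columns of untreated replicates 1 and 2 were the same but for an offset of 0.771 (SD 0.0005), less than the noise between any other arrays, and were counted as 1 array, leaving 35. Cy3 arrays were multiplied by -1. The 8 arrays of 5 and 7 days were moved back to their probe rows, and 480 rows were left out of them. Each of 14030 probes had a single symbol, 5 had several and 6320 had none here. Before these steps, the deposited arrays held 17508 to 20010 values each. Precision is limited by how many arrays each group has.

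limma 3.58.1 (R 4.3.3) fitted 9 group means and a dye effect to all arrays, with Benjamini-Hochberg adjustment over all probes that had 3 values in each group compared. The labels do not say that replicates are separate cultures, so p-values measure only the spread between these arrays, which may be technical. The procedure was tested on simulated data. Text names every probe of Gas1 and Btg2, each list gene called in any of 4 contrasts, or else the 2 with the smallest p, and the 5 probes closest to each gene by Spearman rho over at least 30 shared arrays. Settings varied were centring, quantile normalisation, array weights, turning, dye, block, ceiling, row position, probe averaging and single arrays.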

Additional observations from a re-analysis of the deposited data

Results flagged for a closer look

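All 12 late arrays of Gas1 lay above all 12 early arrays, as did 0.307% of the 12362 probes measured in all of them. The highest early array, at 4 h, stood at 0.00, beside the untreated mean of 0.01 ± 0.20 (SD, n = 3). The late minus early difference of Gas1 was 1.417. It was not tested, since Gas1 was chosen with its values known.

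The effects of early and late tetracycline, both against untreated cells, differed by limma in other listed genes. Higher late than early were Zfp36l1 by 1.32, Slfn1 by 0.91, Pmp22 by 0.79, Ier2 by 0.55, Junb by 0.55, Btg1 by 0.53, Nr4a1 by 0.49, Gfra1 by 0.43 and Foxo3 by 0.43 and 0.55 in 2 of its 3 probes. Lower late than early, as signed log2 differences, were Cks1b at -1.07, Pabpc1 at -0.92, -0.94 and -1.06 in its 3 probes, Ccng1 at -0.79, Fosl1 at -0.63, Plk2 at -0.61, Klf4 at -0.58, Rgs2 at -0.57, Cks2 at -0.53, Cdc25a at -0.52, Klf6 at -0.48 and Cdk4 at -0.47. For Zfp36l1, Ccng1, Cdc25a, Klf6 and Rgs2 the value is that of the called probe, and their other probes were not called.

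No treated group of Gas1 or Btg2 had an array whose gap to the next passed Dixon's test, including Btg2 probe 2 at 3 days.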

How the results depend on the processing

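With Cy3 arrays not turned, Gas1 was 0.23 early, 0.13 middle and 0.27 late against untreated and 0.039 late minus early, and Btg2 was -0.30 late and -0.20 late minus early. Probes called were then 486 early, 470 middle, 1135 late and 687 late minus early. In that setting all 27 calls named from the lists were lost: 14 kept their sign, and the sign turned for the other 13, namely Pmp22 (-0.02), Btg1 (-0.37), Gfra1 (-0.19), Klf4 (0.18), 1 Foxo3 probe (-0.053), Cks2 (0.032), Egr1 (0.72 early, 0.85 middle), Zfp36l1 (-0.33 late against untreated, -0.51 late minus early), Junb (-0.062), Fosl1 (0.14) and Nr4a1 (-0.14). The cause was not tested.

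Against the values of the report (Gas1 -0.57 early, -0.08 middle, 0.85 late and 1.42 late minus early), Gas1 was -0.89 early with quantile normalisation and -0.26 middle without centring. Gas1 was -0.20 early, 0.18 middle and 1.26 late in Cy5 arrays alone, and -0.76 early in Cy3 arrays alone. At the deposited rows, Gas1 was 0.44 late and 0.99 late minus early, and Gfra1 was -0.21. Btg2 middle was -0.21 against 0. With 3 days alone as late, a choice made after seeing the data like the single-dye values, Junb was -0.35 and Ier2 -0.24.

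Probes called by limma were 93 early, 12 middle, 260 late and 1169 late minus early. Without centring they were 24, 3, 110 and 704, and at the deposited rows 40 late and 728 late minus early. Quantile normalisation gave 321 early and 87 middle, array weights 1361, 866 and 827 against untreated, a dye effect for each group 167, 33 and 450, and tests against 0 gave 806, 127 and 1897. Only the arrays compared gave 204, 5 and 0 (619 of 15678 probes had an unadjusted p under 0.05 in the last), gene averages gave 5 middle and 3 days alone gave 129 late.

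Leaving out 1 array at a time gave Gas1 -0.75 to -0.47 early, -0.27 to 0.012 middle, 0.66 to 0.95 late and 1.38 to 1.47 late minus early, and Btg2 -0.11 to 0.09, -0.12 to 0.09, 0.63 to 0.85 and 0.63 to 0.83. Calls ran from 41 (without untreated replicate 4) to 626 (without untreated replicate 1) early, 8 to 439 middle, 79 to 818 late and 1005 to 1331 late minus early. Of 602 such fits for the 27 calls named from the lists, 588 kept the call, and Ier3 and Zfp36l1 against untreated lost it in the other 14.

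Of the 27 calls from the lists, besides those lost with Cy3 arrays not turned, 9 were lost without centring, 5 with quantile normalisation, 3 with array weights and 9 at the deposited rows (of 22 there, besides the turned Gfra1), and none turned sign with centring or quantile normalisation. With 3 days alone as late, 11 of the calls that use late arrays were kept, 11 were lost and 2 turned sign.

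The replicate numbers did not pair the arrays: deviations of same-numbered arrays had r from -0.18 to 0.16 (median 0.02). With the replicate block, Gas1 late minus early was 1.42 and Btg2 0.76, calls were 76, 9, 205 and 1113, and Ier3 and Zfp36l1 against untreated lost their calls (adjusted p = 0.0636 and 0.0527, limma).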
